A study of Mus musculus with 12 samples.

Results

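Short stretches of mRNA that carried an N6-methyladenosine (m6A) peak in every library of the study are described here. Overlapping peaks (by 1 base or more) from the 6 lists were merged, and a merged region was kept when all 6 lists had a peak in it and it spanned 200 bases or less. Of 26654 merged regions, 7569 were shared by the 6 lists, and 911 of these were narrow (12.04% of the shared regions and 3.42% of all merged regions). The 911 narrow regions lay in 734 genes, and each held exactly 1 peak from each list. The members were chosen by being listed in every library and by merged width, so their widths, their presence in each list and their enrichment over input are given as a description, without a test.

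The libraries came from colon of male wild-type C57BL/6J mice aged 6 to 8 weeks and weighing 20 to 22 g. Normal mice (n = 3) were fed normally. Mice of the model group (n = 3) received 5% w/v TNBS (2,4,6-trinitrobenzenesulfonic acid, a hapten that provokes colitis) into the colon through the anus. Each of the 6 labelled animals gave an input library and a library pulled down with an m6A antibody, and the authors listed peaks for each animal against its own input. TNBS colitis is a chemically induced injury used as a model of Crohn's disease, and whole colon mixes epithelium, muscle, stroma and immune cells.

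The m6A mark is written on nuclear RNA by a methyltransferase complex, read by proteins with a YTH domain, and removed by FTO or ALKBH5. The complex prefers the letters called DRACH: A, G or T, then A or G, then A, then C, then A, C or T. In mammalian mRNA the mark is known to gather in long internal exons, around the stop codon and in the 3′ untranslated region. Antibodies against m6A also bind a related nucleotide, m6Am, which can stand beside the cap at the very start of an mRNA. Most internal exons of mammalian genes are short, and a narrow region on the genome can be a single exon or a piece of one.

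Peaks numbered 16488, 16324 and 13992 in normal replicates 1, 2 and 3, and 18752, 10971 and 19285 in TNBS replicates 1, 2 and 3; values below keep this order. TNBS replicate 2 had the shortest list, and all of its peaks carried a false discovery rate of 100% in the authors' column, as did 99.99% of those of TNBS replicate 3. For the 911 narrow regions the median of that rate was 49.5%, 49.3% and 82.6% in the normal lists against 100% in each TNBS list. The part of this difference in the group results below was not tested. The depth behind a peak is unknown. The labels name colon as the tissue while their extraction text speaks of retina. Among 29 epithelial junction genes 20 to 27 had a peak in a list, among 19 smooth muscle genes 13 to 17, and among 25 retina genes 0 in 5 lists and 1 in TNBS replicate 2.

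Short pieces of 12 narrow regions near an annotated transcript start are printed first, since such starts held many of the narrow regions and sequence was read only there. Each run has 30 bases on the gene's strand, read 5′ to 3′ from RefSeq (GRCm38.p6), and capitals mark DRACH letters. Where a region had such letters within reach, the run surrounds the match nearest its 5′ end; otherwise it opens at the region's own 5′ end. Of the runs, 5 belong to regions ranked among the highest by enrichment, 3 to regions ranked higher in all TNBS lists, and 4 to genes of chromatin, the cell cycle and protein quality control.
Ahnak (chr19:8989299-8989328, + strand): gctctgccgcggGGACTgcactgtccgccc
Fkbp5 (chr17:28486120-28486149, - strand): ggggcgggacgacggcgggcgctgcccggc
Mbtps1 (chr8:119558730-119558759, - strand): cgtggtctcgcgAGACTtgcgagtAAACAt
Irf8 (chr8:120736378-120736407, + strand): ggaggcgcgggcagcgtggGAACCggcggc
Ccdc124 (chr8:70873461-70873490, - strand): gacacgcgaccgagccggtgccgggggaag
Med13 (chr11:86357573-86357602, - strand): gtttctctctctggtcggaggcggcggtaa
Gsta1 (chr9:78230677-78230706, + strand): tcctctggagctGGACTgtgagctgagtgg
Acadl (chr1:66863280-66863309, - strand): tctgtccgcctgcccccgccgcggagcccg
Kmt2d (chr15:98871166-98871195, - strand): ttttttttttttAAACCcccgggggaaggg
Setd2 (chr9:110532597-110532626, + strand): cggccgcctcccctccggtcccctcccccg
Cdk1 (chr10:69352906-69352935, - strand): gcggcgagtttgAAACTgctggcactcggc
Sel1l (chr12:91849123-91849152, - strand): ggggcgaagaagGAACCtgagcaggaagag
G and C made up 90.0% of the Fkbp5 run, 86.7% of the Setd2 run and 43.3% of the Kmt2d run. The Ccdc124 region is only 32 bases wide and was in reach whole, and it held no DRACH letters.

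Narrow regions were 25 to 200 bases wide, with a median of 140 and an interquartile range of 107 to 167 bases. In 808 of the 911 (88.7%) all 6 lists gave the same start and the same end. Among shared regions over 200 bases this held for 3108 of 6658 (46.7%). By width the share was 93.3% at 100 bases or less, 87.5% at 101 to 200, 78.2% at 201 to 300, 78.9% at 301 to 500, 62.8% at 501 to 1000, 33.0% at 1001 to 2000 and 16.8% above that. A merged region widens when the ends of its peaks differ, so the width limit itself favours regions with the same ends. These shares are a description of the rule's own measure.

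**Figure D1:**
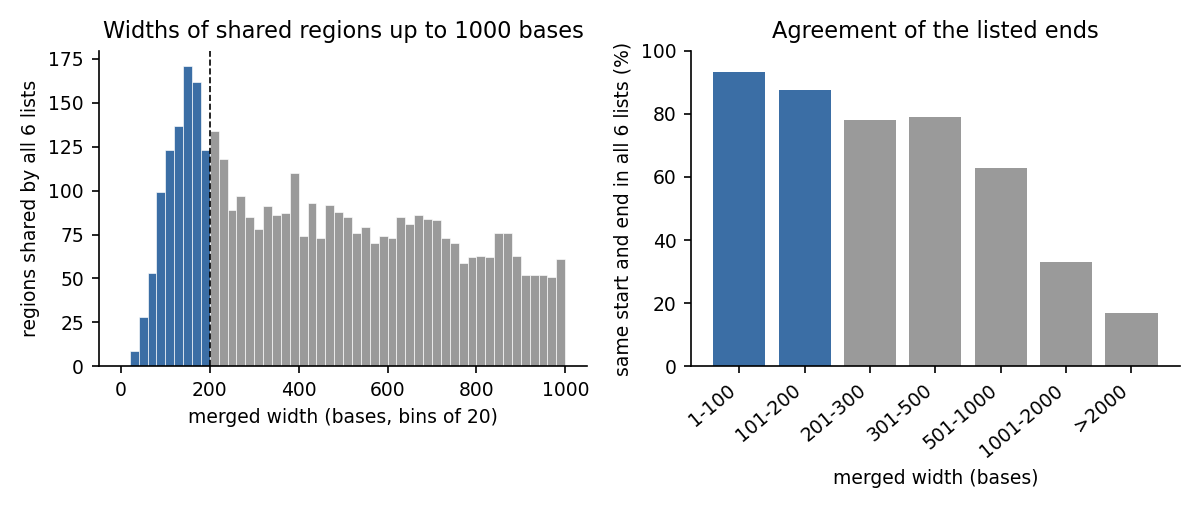
Left, number of regions shared by the 6 lists by merged width in bins of 20 bases, with a dashed line at the limit of 200 bases; right, percent of shared regions with the same start and end in all 6 lists by merged width. Blue bars are the 911 narrow regions and grey bars wider shared regions; the right panel runs from 93.3% to 16.8%.

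In the other 103 narrow regions 195 peaks departed from the commonest pair of ends, by a median of 16.0 bases and at most 130. TNBS replicate 2 accounted for 57 of them and each other list for 26 to 29. It alone departed in 25 of the 49 regions in which a single list did so. Widths that are multiples of 3 made up 38.4% of the narrow regions, 37.1% of shared regions of 201 to 1000 bases and 34.5% of those over 1000 bases.

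At the limit itself, 62 shared regions were 190 to 200 bases wide and 73 were 201 to 211. Members of exactly 200 bases lay in Prps1l3, Kif21a (a kinesin motor), Trp53i11, Mafk (a small Maf transcription factor) and Tle3 (a corepressor), with mean percentiles of fold enrichment of 84.0, 41.1, 76.7, 62.2 and 27.2. Just outside were regions of 201 bases in Prpf4b (a kinase of the splicing machinery) and Crtc3 and of 202 bases in Cep131 and Eif3a, with mean percentiles of 95.6, 2.34, 19.5 and 83.4. These values ran from 27.2 to 84.0 inside the limit and from 2.34 to 95.6 outside it. They are a few of the 62 and 73 regions, and the sides were not compared as a whole. Prps1l3 lies inside the gene Mipol1 and resembles Prps1, so its reads could stem from either relative.

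The narrowest members were 25 bases in Arhgef3, 26 in Psmc1 (an ATPase of the proteasome), 27 in Slc51b (a subunit of the basolateral bile acid exporter), 31 in Copz1 (a coatomer subunit) and 32 in Ccdc124 (a ribosome-binding protein). Each of these 5 had the same ends in all lists. Slc51b at chr9:65422747-65422773 had fold enrichments of 5.50, 9.57 and 6.06 in the normal lists against 6.93, 11.79 and 23.65 in the TNBS lists. Its groups overlapped, since TNBS replicate 1 lay below normal replicate 2.

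Position along the gene was read from RefSeq transcript starts and gene spans for the 719 members whose gene had a start with a known strand. Exon, intron and untranslated region annotation was not used here, and all 901 members whose gene was in the RefSeq table were assigned to protein-coding genes. Narrow regions were gathered at the 5′ end: 230 of 719 (32.0%) had their midpoint in the first 10% of the gene, and each later step of 10% held 6.12% to 11.4%. A RefSeq transcript start was the exact 5′ end of 137 members (19.1%), and 196 (27.3%) contained one. Only 2 members (0.278%) ended at the annotated 3′ end of their gene.

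Shared regions of 201 to 1000 bases were like the narrow ones at the 5′ end, with 32.6% in the first 10% and 19.5% starting at a transcript start, but 22.8% lay in the last 10% of the gene against 6.95% of the narrow ones. Regions over 1000 bases had 5.55% in the first 10% and 48.3% in the last, and 23.6% ended at the gene's 3′ end. Placement was not used to choose the regions, but the width limit bars any region that spans a long exon. Genes of narrow members had a median span of 43.1 kb, against 35.5 kb for genes with a shared region of 201 to 1000 bases and 28.9 kb for those over 1000 bases.

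**Figure D2:**
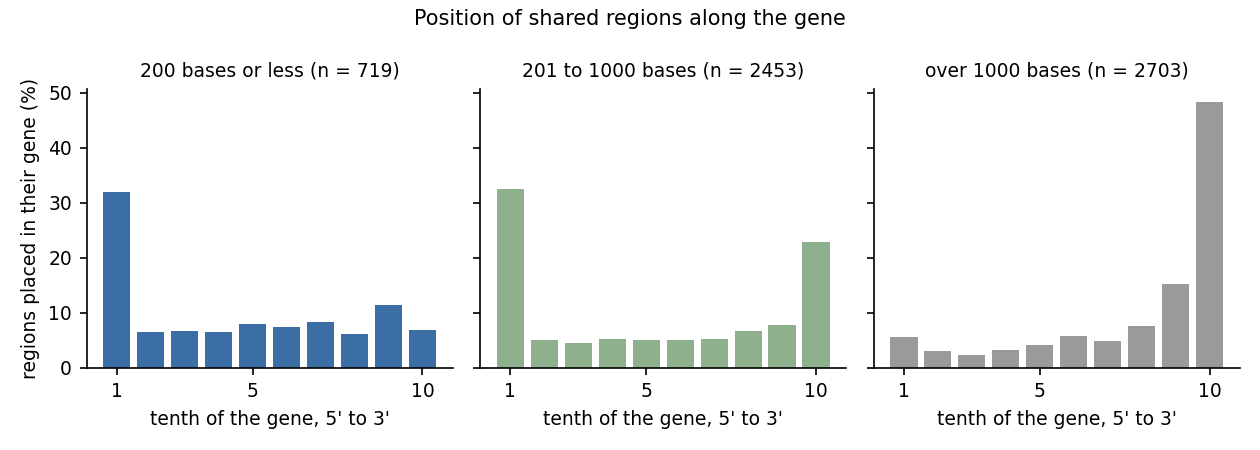
Percent of shared regions in 10 equal steps along the gene from 5′ to 3′, in 3 width classes, for regions placed in a gene of known strand (719, 2453 and 2703 regions). The first step holds 32.0% of the narrow regions and the last step 48.3% of the regions over 1000 bases.

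The first 50 transcribed bases of the 137 members that open at a transcript start were set beside the same stretch at all 32851 RefSeq starts. DRACH letters on the gene's strand were found in 44 of the 137 (32.1%) and in 54.4% of all starts. The letters GGAC, whose matches overlap those of DRACH, were found in 24.8% and 18.9%. The median share of G and C was 70.0% and 56.0%, and the first transcribed base was A in 22.6% and 34.4% and G in 48.9% and 35.6%. At the 21263 starts of protein-coding genes, the class of all members found in RefSeq, DRACH letters were found in 50.45% and GGAC in 19.97%. There the first base was A in 37.35% and G in 39.29%. The median share of G and C there lay between those of the members and of all starts. For the 477 regions of 201 to 1000 bases that open at a start, DRACH letters were found in 36.7%, GGAC in 17.2% and A as the first base in 28.9%. For the 198 regions over 1000 bases these shares were 45.96%, 20.2% and 30.3%. The 50 bases run past the end of narrower members, such as Ccdc124 at 32 bases. Base composition differs between these sets, and its part in the motif shares was not tested.

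Fold enrichment here is the authors' ratio of pulled-down to input signal for each peak. The median of the narrow regions was 13.3, 12.1 and 10.9 in the normal lists against 12.7, 8.06 and 17.6 in the TNBS lists. Shared regions over 1000 bases had medians of 20.5, 16.3 and 13.7 and of 19.6, 10.7 and 23.5. Within each list the shared regions were ranked from 0 to 100 by fold enrichment, and the median percentile of the narrow regions was 30.5, 35.5 and 39.0 in the normal lists against 30.3, 36.3 and 35.7 in the TNBS lists. Narrow regions thus sat below the middle of the shared regions in every list. Over all peaks of a list, shared or not, the median fold enrichment was 11.46, 9.72 and 9.33 in the normal lists. In the TNBS lists it was 9.82, 8.57 and 12.5. The median of the narrow regions was below that of the whole list only in TNBS replicate 2.

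**Figure D3:**
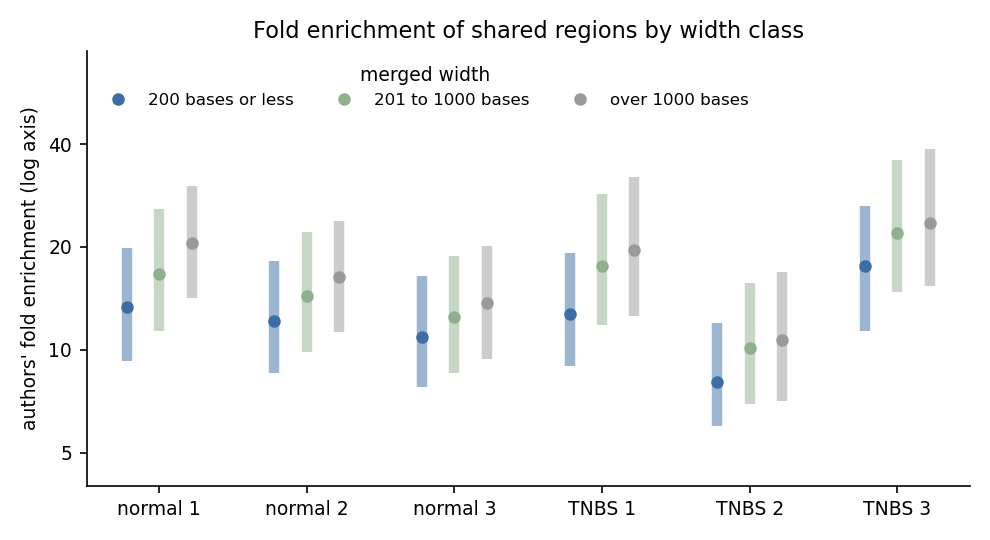
Fold enrichment of shared regions in each of the 6 lists on a log axis, in 3 width classes; points are medians and bars span the interquartile range over regions. The narrow regions have the lowest median in every list, from 8.06 in TNBS replicate 2 to 17.6 in TNBS replicate 3.

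For a single narrow region the highest of its 6 fold enrichments was a median of 2.68 times the lowest. The lowest value came from TNBS replicate 2 in 541 of the 911 and the highest from TNBS replicate 3 in 493. Rank correlations of fold enrichment over the 911 regions were 0.759 to 0.822 between normal lists, 0.533 to 0.754 between TNBS lists and 0.394 to 0.598 across groups. Over the 3521 regions above 1000 bases they were 0.849 to 0.890, 0.717 to 0.843 and 0.601 to 0.742. These are descriptions across regions, which share libraries and genes.

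The highest mean percentile belonged to Ahnak, which encodes a giant scaffold protein under the plasma membrane. Its member at chr19:8989284-8989429 is 146 bases long and opens at the annotated transcript start, 15 bases before the run printed above. Its fold enrichments were 247.93, 394.63 and 226.01 in the normal lists against 308.96, 149.93 and 610.53 in the TNBS lists. All 6 stood at percentile 99.9 or above, with the groups overlapping, and it was the only shared region listed for Ahnak.

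Fkbp5, a co-chaperone of the glucocorticoid receptor, had a 198-base member at chr17:28485952-28486149 that also opens at a transcript start. Its fold enrichments were 72.93, 114.42 and 69.3 in the normal lists against 66.53, 144.7 and 124.8 in the TNBS lists, and the groups overlapped. Irf8, a transcription factor of myeloid and B cells, had a 52-base member at chr8:120736358-120736409 with 81.38, 46.34 and 45.93 against 85.49, 64.59 and 138.62. By rank the groups overlapped there too, since TNBS replicate 1 (percentile 97.4) lay below normal replicate 1 (percentile 98.3). A wider Irf8 region of 622 bases farther downstream stood at percentiles of 38.5, 38.8 and 26.4 in the normal lists against 44.4, 52.3 and 68.7 in the TNBS lists, without overlap.

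Mbtps1, the Golgi protease that releases SREBP and ATF6 from membranes, had a 116-base member at chr8:119558646-119558761 with 91.69, 75.39 and 61.81 in the normal lists against 94.01, 48.49 and 106.13 in the TNBS lists. Its percentiles ran from 98.6 to 98.9 in normal lists and from 97.6 to 98.0 in TNBS lists, so the groups did not overlap by rank although the fold enrichments did. Ccdc124 showed the same order, at 82.46, 74.22 and 72.37 and at 75.1, 27.9 and 74.91, in its 32 bases at chr8:70873459-70873490.

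The other regions among the 10 highest were in Rap1gap (a GTPase activator for Rap1), Nacc1 (a BTB-domain transcription regulator), Tnrc6c (a partner of Argonaute in silencing by miRNAs), Ddx46 (a helicase of the early spliceosome) and Fam32a. Their mean percentiles were 98.6, 97.5, 97.4, 97.2 and 97.1. Rap1gap carried 90.72, 92.64 and 87.53 in the normal lists against 89.1, 46.06 and 118.95 in the TNBS lists at chr4:137707522-137707660. A wider region of 987 bases in the same gene was ranked at 24.2, 38.2 and 44.6 in the normal lists against 85.5, 74.1 and 80.1 in the TNBS lists. The Nacc1 member lies where the span of Trmt1 also runs, and reads of the neighbours cannot be told apart.

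**Figure D4:**
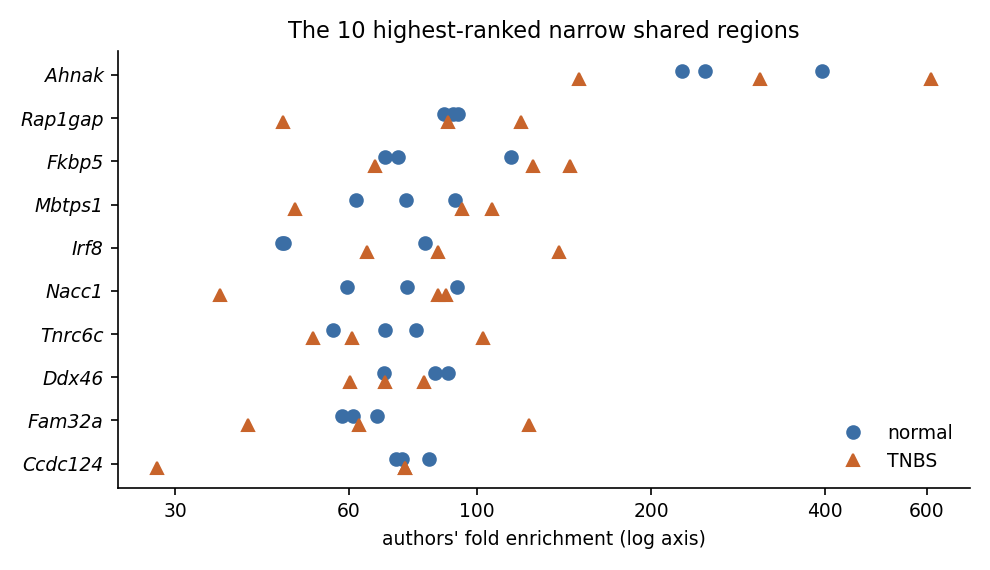
Authors' fold enrichment, on a log axis, of the 10 narrow regions with the highest mean percentile; blue circles are the 3 normal lists and orange triangles the 3 TNBS lists. Ahnak spans 149.93 to 610.53, and TNBS replicate 2 gives the lowest of the 6 values in Ahnak, Rap1gap, Mbtps1, Nacc1, Tnrc6c, Fam32a and Ccdc124.

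At the other end, the lowest mean percentiles were 0.325 in Kbtbd2 (an adaptor of a cullin ubiquitin ligase), 1.23 in Bptf (a subunit of the NURF chromatin remodeller), 2.16 in Ik (a spliceosome component), 2.69 in Utrn (utrophin) and 3.05 in Upp1 (uridine phosphorylase). The Kbtbd2 member at chr6:56781801-56781966 had fold enrichments of 5.03, 3.94 and 2.87 in the normal lists against 4.22, 2.43 and 4.93 in the TNBS lists. Its ends were the same in all 6 lists, as were those of 88.7% of the narrow regions, and the rule itself requires a peak in each list.

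Groups were set side by side by rank within the list, since fold enrichment differed between lists as a whole. In 104 of the 911 narrow regions (11.4%) every TNBS percentile was above every normal one, and over all 7569 shared regions this share was 16.0%. In 152 (16.7%) every normal percentile was above every TNBS one, against 17.8% of all shared regions. Groups overlapped in the remaining 655. Without TNBS replicate 2, the list with the fewest peaks, the counts were 260 and 363 of 1391 narrow regions (18.7% and 26.1%), beside 22.9% and 25.2% of all 10095 regions shared by the other 5 lists. The regions higher in TNBS also numbered 180 of 993 without normal replicate 3 and 167 of 944 without TNBS replicate 1. For these 2 settings no share over all shared regions is at hand, and fewer lists are easier to separate. Nothing particular to the narrow regions is read from them. The median difference of mean percentiles, TNBS minus normal, was -1.66 over the narrow regions and -0.308 over all shared regions. With 3 against 3 lists no single region could reach an exact two-sided permutation p below 0.1, so no region was tested. Fewer cells of a type and less RNA per cell cannot be told apart in such tissue.

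TNBS replicate 1 alone ranked 233 narrow regions above all normal lists (25.6%) and 378 below (41.5%). Over all shared regions it ranked 32.8% above and 35.9% below. For TNBS replicate 2 the counts were 291 (31.9%) and 296 (32.5%), beside 35.1% and 35.5% of all shared regions. For TNBS replicate 3 they were 295 (32.4%) and 348 (38.2%), beside 34.7% and 37.0%. With all widths pooled, more shared regions were below than above in each TNBS list. Shared regions of 201 to 1000 bases went the other way, with 34.6%, 37.8% and 38.2% above in TNBS replicates 1, 2 and 3. Their shares below were 32.8%, 31.1% and 33.7%. All these counts share the 3 normal lists.

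Among the regions ranked higher in TNBS, the widest gap was in Med13, a subunit of the Mediator kinase module. Its 143-base member at chr11:86357460-86357602 spans the annotated transcript start, 6 bases after its 5′ edge. Fold enrichments were 14.3, 8.08 and 7.74 in the normal lists against 30.33, 26.58 and 40.43 in the TNBS lists, and percentiles 35.1, 12.4 and 16.8 against 76.8, 91.2 and 79.7. A wider Med13 region of 917 bases toward the 3′ end had the opposite order, at 28.5, 31.2 and 25.1 against 10.4, 18.7 and 17.8.

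Uqcrc1, a core subunit of respiratory complex III, Hadh, an enzyme of mitochondrial fatty acid oxidation, and Acadl, the long-chain acyl-CoA dehydrogenase, were also among the 6. Uqcrc1 had 7.48, 6.65 and 7.96 in the normal lists against 19.97, 11.07 and 63.72 in the TNBS lists at chr9:108937016-108937156. Hadh had 5.07, 6.73 and 5.68 against 19.17, 6.52 and 65.03 at chr3:131249803-131249931. There the fold enrichment of TNBS replicate 2 lay within the normal range, and only its percentile, 21.4 against at most 6.25, was higher. A second Hadh region, 226 bases wide, was ordered alike, at percentiles of 6.50, 36.8 and 40.2 against 87.2, 56.6 and 96.2. Acadl, whose member at chr1:66863173-66863309 opens at the transcript start printed above, had 6.38, 8.44 and 5.65 against 13.61, 14.82 and 31.91.

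Gsta1, a glutathione transferase, had 4.36, 9.45 and 8.16 in the normal lists against 18.2, 30.4 and 33.93 in the TNBS lists at chr9:78230656-78230730, with no overlap. Gsta1 has close relatives in the same family, and the authors' assignment of reads among them is not given in the sources used here. Myh11, the smooth muscle myosin heavy chain, had 7.81, 7.55 and 11.03 against 26.12, 11.41 and 90.05 in 133 bases at chr16:14291276-14291408. A second narrow Myh11 region, 145 bases at chr16:14211226-14211370, had 12.78, 16.47 and 18.75 against 13.76, 2.95 and 37.27, and there the TNBS lists included both the lowest and the highest value.

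**Figure D5:**
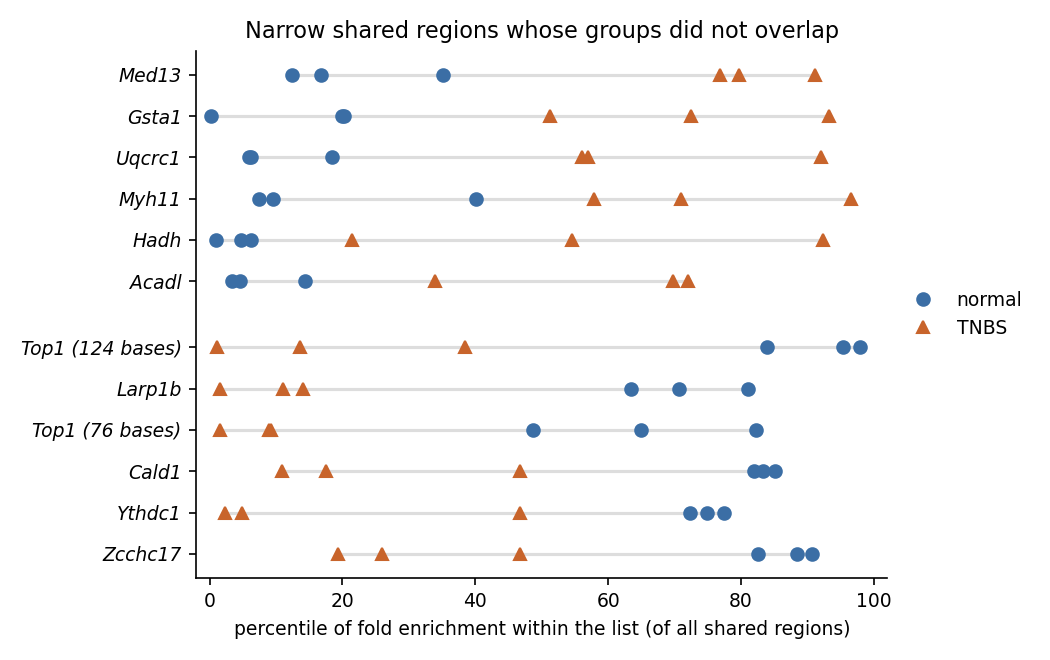
Percentile of fold enrichment within each list, from 0 to 100, for the 6 narrow regions ranked higher in TNBS (top) and the 6 ranked higher in normal colon (bottom) with the widest gap between group means; blue circles are normal and orange triangles TNBS lists. The rows were chosen because the groups do not overlap; Med13 runs from 12.4 to 91.2 and the 124-base Top1 region from 1.10 to 97.9.

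In the direction of higher rank in normal colon, the widest gap was in Top1, the DNA topoisomerase that relaxes supercoils during transcription. Its 124-base member at chr2:160682651-160682774 had fold enrichments of 34.03, 45.39 and 53.52 in the normal lists against 14.63, 5.63 and 5.92 in the TNBS lists. The 76-base member at chr2:160690277-160690352 had 17.64, 18.76 and 22.79 against 8.07, 5.11 and 6.39. Another member, 103 bases at chr2:160670100-160670202, had 39.96, 35.14 and 40.46 against 25.82, 15.06 and 4.97. The wider region of 804 bases near the start of the gene was ordered alike, at percentiles of 70.1, 88.9 and 91.1 against 54.9, 60.5 and 52.6. All 4 shared regions of Top1 were thus ranked higher in every normal than in any TNBS list.

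Ythdc1 encodes the nuclear m6A reader and was the only gene among 14 erasers and readers with a narrow member, while 9 had a shared region of some width. The member, 135 bases at chr5:86833508-86833642, had 29.02, 22.41 and 18.25 in the normal lists against 6.81, 9.52 and 6.9 in the TNBS lists. Of the 3 wider Ythdc1 regions, 1 of 427 bases had the same order without overlap (percentiles 77.7, 65.0 and 70.8 against 11.3, 48.5 and 3.71). The other 2, of 371 and 976 bases, overlapped between groups.

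Larp1b, an RNA-binding protein of the La-related family, had 22.06, 20.65 and 22.11 against 5.39, 5.37 and 11.43 in 175 bases at chr3:40963968-40964142. Its 2 other narrow regions overlapped between groups, with mean percentile differences of -0.973 and -5.39 against -62.8 for this one. Zcchc17, a nucleolar zinc finger protein, had 39.13, 26.86 and 30.21 against 16.89, 6.29 and 14.79 at chr4:130327193-130327338. The span of Gm35074 also runs over this Zcchc17 region. Cald1 encodes caldesmon, which binds actin in smooth muscle, and had 32.11, 27.49 and 24.49 against 16.86, 6.08 and 10.47 at chr6:34753443-34753588. Both wider Cald1 regions had the same order without overlap.

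Smooth muscle genes were thus named in both directions, as were shared regions at large. Of 19 such genes 11 had a shared region and 5 a narrow one (45.5% of the 11), Actg2, Cald1, Flna, Myh11 and Synm. Of their 6 narrow regions 1 was ranked higher in every TNBS list (Myh11) and 1 in every normal list (Cald1). Each is 16.7% of the 6, close to the 16.0% and 17.8% of all shared regions. Nothing particular to smooth muscle genes is read from this. Actg2, the enteric smooth muscle actin, had 7.73, 11.95 and 14.65 against 84.89, 5.41 and 67.21. By fold enrichment TNBS replicate 2 was thus the lowest of all and the other TNBS lists the highest. The span of Gm38844 also runs over this Actg2 region.

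Genes could hold several members: 137 genes had 2 or more, 314 members in all, and 597 genes had 1. In 19 of the 137 genes at least 2 members were ranked higher in every normal list and none the other way, and in 6 genes at least 2 were ranked higher in every TNBS list. The 6 were Dab2ip, Eif4g3, Hmga1, Mprip, Rbm17 and Tacc1, and the 19 included Atrx, Ncor1, Rad50, Rock1, Smarcc1 and Top1, all named after their values were seen. Setd2 alone had members in both directions, and 62 genes had none that separated the groups. The 19 and 6 genes were 13.9% and 4.38% of the 137, and Setd2 was 0.730%. Among the 1527 genes with 2 or more shared regions of any width the corresponding shares were 9.23%, 7.20% and 4.52%. For the 62 genes no such share is at hand, and nothing particular to the narrow regions is read from these counts. Members of a gene share a locus, though the transcript listed for them can differ, and they are not independent of each other. A wider shared region was also present in 490 of the 734 member genes (66.8%).

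Smarcc1, a core subunit of the SWI/SNF chromatin remodeller, had the most, with 7 narrow and no wider shared regions over 35.2 kb of chromosome 9. Their mean percentiles ran from 5.11 to 86.1, so neighbouring stretches of 1 gene differed widely. The strongest, 56 bases at chr9:110202503-110202558, had 39.76, 41.23 and 43.46 in the normal lists against 28.35, 20.85 and 38.56 in the TNBS lists, without overlap. The weakest, 125 bases at chr9:110173881-110174005, had 8.24, 4.19 and 3.63 against 3.17, 6.46 and 4.54, and overlapped.

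Ddx46 had 5 members and no wider region, with mean percentiles from 69.0 to 97.2, all within 12.5 kb of chromosome 13. Its 166-base member at chr13:55647627-55647792 had 124.95, 117.73 and 105.65 in the normal lists against 88.92, 56.36 and 17.31 in the TNBS lists. Another member, 144 bases at chr13:55639791-55639934 had 68.97, 84.54 and 89.17 against 60.32, 81.04 and 69.2, with overlap. Baz2b, a bromodomain protein, also had 5 members, and Bms1, a ribosome biogenesis GTPase, and Eif4g3, a translation initiation scaffold, had 4 each. For Eif4g3, 2 of the 4 were ranked higher in every TNBS list, and for Bms1 none separated the groups.

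Chromatin regulators, the longest of the gene lists, held 22 members. Of 40 genes 36 had a shared region and 14 a narrow one (38.9% of the 36), beside 5 of 11 smooth muscle genes (45.5%) and 734 of all 5299 genes with a shared region (13.9%). They included Arid1b, Bptf, Chd7, Dnmt1, Dnmt3a, Ep300, Kmt2d, Med13l, Ncor1, Setd2, Smarca2, Smarca4 and Tet3, and the 22 narrow regions lay in the 14 genes. Every TNBS list was higher in 7 of the 22 (31.8%, beside 16.0% of all shared regions) and every normal list in 4 (18.2%, beside 17.8%), with a median difference of 6.58 percentile points beside -0.308 over all shared regions. Several of the 22 lie in the same gene. Smarcc1 and Baz2b, chromatin genes that the list does not hold, had 0 members higher in every TNBS list and 2 and 1 higher in every normal list. Smarcc2, also outside the list, had a member higher in every TNBS list at chr10:128485560-128485694. The count thus depends on which genes are listed. The list and the members were chosen with earlier results known, and no test was made.

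Kmt2d, the histone H3 lysine methyltransferase, ranked highest of these, with 68.47, 49.62 and 39.5 in the normal lists against 61.95, 24.9 and 72.92 in the TNBS lists at chr15:98871014-98871205. The fold enrichments overlapped, but by rank every normal list (percentiles 97.3, 96.4 and 95.4) was above every TNBS list (94.7, 89.6 and 94.2). Ncor1, a nuclear receptor corepressor, had 38.99, 33.82 and 28.18 against 11.22, 13.54 and 20.9 at chr11:62384718-62384845, with no overlap. Setd2, the methyltransferase of H3 lysine in transcribed genes, had 25.44, 19.59 and 15.43 against 26.84, 15.99 and 33.19 at chr9:110532597-110532752, where only the percentiles separated the groups. Smarca4, the SWI/SNF ATPase, had 24.95, 17.64 and 20.83 against 32.58, 11.97 and 38.06 in the strongest of its members, with overlap.

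Epithelial junction genes had 5 narrow members among 15 genes with a shared region: Cgn, Cgnl1, Jup, Plekha7 and Tjp1. Cgn (cingulin, a tight junction plaque protein) had 50.35, 30.67 and 22.89 in the normal lists against 57.48, 35.2 and 74.18 in the TNBS lists at chr3:94786376-94786515, with overlap. Jup (plakoglobin, of desmosomes and adherens junctions) opened at a transcript start and had 10.64, 14.48 and 6.79 against 21.36, 12.01 and 33.75 at chr11:100397636-100397790. Its percentiles, at most 47.8 in normal and at least 60.8 in TNBS lists, did not overlap, while the fold enrichments did.

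Among the 11 m6A writer genes 7 had a shared region, and Zc3h13 and Wtap, which hold the methyltransferase in the nucleus, each had a narrow one. Zc3h13 had 22.19, 15.65 and 22.39 against 12.24, 10.47 and 20.63 at chr14:75335922-75336074, without overlap by rank. Wtap had 10.75, 6.69 and 3.97 against 5.33, 6.87 and 6.84 at chr17:12969405-12969559, and overlapped.

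Single members came from other lists. Cdk1, the mitotic kinase, had 12.94, 10.67 and 12.32 in the normal lists against 6.5, 4.12 and 4.69 in the TNBS lists at chr10:69352836-69352938, with no overlap. Il6st, the shared receptor subunit of the interleukin-6 family, had 4.57, 6.48 and 8.96 against 10.83, 8.05 and 11.77 at its transcript start, and its percentiles overlapped. TNBS replicates 1 and 3, at percentiles of 21.3 and 15.4, lay below normal replicate 3 at 26.1. Egln1, the oxygen-sensing prolyl hydroxylase, had 68.85, 63.61 and 51.03 against 87.6, 28.72 and 80.32, with overlap.

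Sel1l (of endoplasmic reticulum degradation), Traf6 (an adaptor of toll-like and interleukin-1 receptors), Col4a1 (basement membrane collagen) and the Wnt genes Lrp5, Lrp6 and Tcf7l2 had members that overlapped between groups. The span of Gm32709 also runs over the Col4a1 member. No narrow member came from the Notch list, where 12 genes had a shared region, or from the TGF-beta and BMP list, where 14 had. The absorption, endothelial, enteric nerve, immune cell, mucus and retina lists had none either, with 9, 10, 3, 1, 2 and 0 genes with a shared region.

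Narrow regions in the lists as a whole were mostly not shared. Of 7998 merged regions of 200 bases or less, 3195 (39.9%) came from 1 list and 911 (11.4%) from all 6. Each list held 2645 to 3484 such peaks in normal colon and 4460, 2180 and 5039 in TNBS colon, and the peaks of the shared members made up 18.1% (TNBS replicate 3) to 41.8% (TNBS replicate 2) of them. The means were 3197 ± 478 (SD, n = 3) for normal and 3893 ± 1511 (SD, n = 3) for TNBS, a difference of 696 that did not pass an exact two-sided permutation test (p = 0.50, smallest possible 0.1). Median peak width per list was 629 ± 24.3 bases (SD, n = 3) and 537 ± 71.4 bases (SD, n = 3), and that difference of -92.2 bases did not pass either (exact permutation p = 0.20). Without TNBS replicate 2 the difference in narrow peaks was 1553 (exact permutation p = 0.10) and without TNBS replicate 3 it was 123.3 (p = 1.0 by the same exact test). These p-values place the difference of group means among all regroupings of the labelled samples. Fewer regroupings exist when a list is left out, and 0.10 is the smallest possible p there as well.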

How the data were processed

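Peaks were called per animal, pulled-down against input library, in mRNA. Per the submitters' processing notes, CASAVA 1.8 and BWA were used and the build is hg19, a human one; 99.1% to 99.5% of positions overlapped their own mouse gene in GRCm38, so positions are read as GRCm38. Starts in the files count from 0, and printed positions count from 1. Caller settings and read depth are not given in the sources used here. The authors deposited, for each peak, a score (-10 times log10 of p, at least 50), a fold enrichment (the ratio to input), a false discovery rate in percent and a width.

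Peaks were merged with Python 3.11.15, pandas 2.3.3 and numpy 2.4.6, checked on simulated peaks. Percentiles rank the 7569 shared regions within a list. Gene IDs matched the RefSeq table for 901 of 911 members and a start window of 300 bases for 721. Exact permutation tests of 3 against 3 lists used 20 regroupings, and those with a list left out or with a block used fewer. Same-numbered animals' deviations in log2 fold enrichment correlated at -0.0234, -0.0550 and 0.0660, and those of other numbers at -0.0973 to 0.0991. No pairing by number was seen, but correlations this small cannot settle whether numbers pair animals. Members and gene lists were chosen with earlier results of these data known. Named members are the 10 highest and 5 lowest mean percentiles, the 6 widest gaps each way without overlap, up to 4 per gene list, the 5 narrowest, 5 widest and 5 just outside, and the 5 genes with most members; clone names were left out, and a few members picked this way are not reported here. Genes with several members in 1 direction, the further Top1 member and the other regions of named genes were added after values were seen.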

Additional observations from a re-analysis of the deposited data

How the results depend on the processing

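The alternatives were width limits of 150 and 250 bases, overlap of 50% of the shorter peak, peaks with a caller p up to 1e-10, peaks with fold enrichment from 4 on, ranking by score, and leaving out each list. The count of narrow regions was 544 at 150 bases and 594 at the stricter p. Regions higher in every TNBS list then numbered 59 of 544 and 61 of 594, and those higher in every normal list 84 and 121. No share over all shared regions is set beside these counts, so nothing particular to the narrow regions is read from them. By score the mean over lists of the median percentile was 25.3 instead of 34.5. The share in the first 10% of the gene was 35.6% at 250 bases, an alternative chosen after seeing the data, as were all those for position. Leaving out 1 list gave 939 to 1391 narrow regions, 88.3% to 91.7% with identical ends, 138 to 260 higher in TNBS and 189 to 363 higher in normal lists. The highest value of each came without TNBS replicate 2, and fewer lists are easier to satisfy. The regions higher in TNBS also numbered 180 without normal replicate 3 and 167 without TNBS replicate 1. Shares over all shared regions were set beside such counts only for the run without TNBS replicate 2. The difference in narrow peaks then ran from 123.3 to 1553 and in median width from -131.7 to -62.2 bases. With the replicate number as a block, the differences of 696.3 peaks and -92.2 bases are the same by construction. Exact paired permutation gave p = 0.75 and p = 0.50 for them. The smallest possible p was 0.25 in that setting, so neither difference could have passed there. Matches to exon ends, DRACH letters over whole regions and the coding part were not run, since no genome or exon annotation was used here. Depth is unknown, so weak peaks missing from TNBS replicate 2 cannot be read as absent.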
